A study of Arabidopsis with 12 samples.

Results

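Dehydrins are the subject of this report, as 10 genes among the 33559 genes of the table that the authors deposited. The members were chosen by name and locus, as *RAB18* (AT5G66400), *XERO1* (AT3G50980), *XERO2* (AT3G50970), *COR47* (AT1G20440), *ERD10* (AT1G20450), *ERD14* (AT1G76180), *HIRD11* (AT1G54410) and the dehydrin loci AT2G21490, AT4G38410 and AT4G39130. The rule itself uses names and loci and no measured value, while the family was picked for description with earlier results of these data known. The table describes 9 genes as dehydrins, and all 9 are members. The remaining member, *COR47*, is described by its cold regulation.

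The RNA came from whole seedlings of *aph-1* and of the wild type Col-0, each with and without ABA. The groups were ABA-treated *aph-1*, the ABA-treated wild type, untreated *aph-1* and the untreated wild type, with 3 libraries each. All seedlings were 14 days old and had been grown on half-strength MS medium with sucrose. The labels give ABA as 50 micromole for 6 h. The mutant *aph-1* (Salk_120974) is a single insertion line with a T-DNA in the promoter of *APH*, a low molecular weight protein tyrosine phosphatase gene, and the study describes a fused T-DNA and *APH* transcript in it.

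Dehydrins are hydrophilic, largely unfolded proteins of the late embryogenesis abundant (LEA) class that accumulate in drying seeds and in tissues exposed to drought, salt or cold. They carry a lysine-rich repeat, the K-segment, that can fold into a helix on membrane surfaces, and they are thought to protect membranes and enzymes when water is lost. ABA bound to its PYR/PYL receptors inhibits the clade A PP2C phosphatases, which frees SnRK2 kinases to activate the ABF transcription factors, and these bind ABA-responsive elements in promoters such as that of *RAB18*. Some dehydrin genes are also reached by CBF and DREB2 factors through a separate cold- and drought-responsive element.

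Each gene had 1 value per group, in FPKM, a fragment count scaled to the length of the gene and to the size of the library. No value per library was used here, so no SD, standard error or test could be had for any difference below, and the spread between the 3 libraries of a group is unknown. A gene was counted as higher or lower in a comparison when its FPKM differed at least 2-fold and reached at least 1 FPKM in at least 1 of both groups, and ratios were taken without a pseudocount. The values summed to 1113654 in *aph-1* and 1119237 in the wild type with ABA, and to 1027611 in *aph-1* and 1093168 in the wild type without ABA, while read totals are not known. *APH* (AT3G44620) was listed at 86.9 FPKM in ABA-treated *aph-1* and 99.0 FPKM in the ABA-treated wild type, and at 83.6 FPKM in untreated *aph-1* and 95.9 FPKM in the untreated wild type. With an insertion upstream of the gene and a fused transcript, this level does not check the genotype labels. Leaf and root markers were present in every group, with *RBCS1A* between 3952 and 12404 FPKM and *BGLU23* between 1165 and 2280 FPKM. The seed storage and oil body genes *CRA1*, *CRU3* and *OLEO1* were below 1 FPKM in all groups.

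As a pool, dehydrin transcripts were several times more abundant after ABA in both genotypes. The 10 genes summed to 24554.5 FPKM in ABA-treated *aph-1* and 28317 FPKM in the ABA-treated wild type, against 4760 FPKM in untreated *aph-1* and 6426 FPKM in the untreated wild type. These sums were 2.205% and 2.53% of all FPKM after ABA, in *aph-1* and in the wild type, and 0.463% and 0.588% without ABA. The pool was thus 5.16-fold higher after ABA in *aph-1* and 4.41-fold higher in the wild type. Between genotypes, the pool in *aph-1* was 0.867 times that of the wild type with ABA and 0.741 times without ABA.

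The make-up of the pool changed along with its size. Without ABA, *HIRD11*, which encodes a histidine-rich dehydrin that binds metal ions, made up 77.6% of the pool in *aph-1* and 73.9% in the wild type. It was the only member above 1000 FPKM in either untreated group and ranked 9 among all genes in untreated *aph-1* and 5 in the untreated wild type. After ABA, 6 members were above 1000 FPKM and the largest share was 25.9%. *COR47* and *RAB18* then led, with 23.7% and 23.5% in *aph-1* and with 23.0% and 25.9% in the wild type. Without *HIRD11*, the summed level of the other members was 19.3-fold higher after ABA in *aph-1* and 14.1-fold higher in the wild type.

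**Figure D1:**
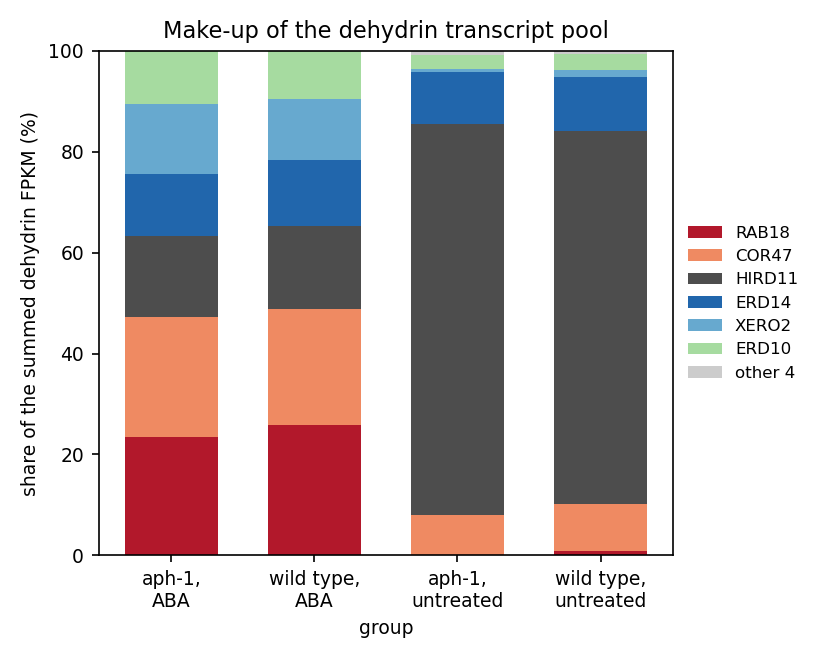
Share of the summed dehydrin FPKM (%) held by each gene in the 4 groups, with the 4 least abundant genes after ABA combined in grey. *HIRD11* fills 77.6% of the bar for untreated *aph-1* and 73.9% for the untreated wild type, and 16.2% and 16.3% of the bars for ABA-treated *aph-1* and the ABA-treated wild type.

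The next comparison asks how each member responded to ABA. In the wild type, 8 of the 10 members were at least 2-fold higher after ABA, 1 was lower and 1 was within 2-fold. Among the 20094 genes with at least 1 FPKM in the same comparison, 11.9% were higher and 13.4% were lower. In *aph-1*, 9 members reached 1 FPKM, of which 7 were higher, 1 was lower and 1 was within 2-fold, against 12.2% of 20054 genes higher and 11.1% lower. Over the 8 members above 0 in every group, the median log2 ratio was 4.17 in *aph-1* and 3.62 in the wild type, while the medians over all genes were −0.02 in *aph-1* and 0.00 in the wild type. *XERO1*, AT2G21490 and AT4G39130 reached 1 FPKM only after ABA, AT4G39130 in the wild type alone, and so could not count as lower. The other members were above 1 FPKM in every group.

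*RAB18*, a gene named for its response to ABA, had the largest ratio of the 8 members above 0 in every group, in both genotypes. It was listed at 5766 FPKM in ABA-treated *aph-1* and 7335 FPKM in the ABA-treated wild type, against 5.67 FPKM in untreated *aph-1* and 56.6 FPKM in the untreated wild type. The log2 ratio to ABA was 9.99 in *aph-1*, which is 1017-fold, and 7.02 in the wild type, which is 129.5-fold. After ABA it ranked 11 among all genes in *aph-1* and 6 in the wild type, while without ABA it ranked 14531 in *aph-1* and 3318 in the wild type. The study also measured *RAB18* by quantitative RT-PCR, and its primer pair is shown because this gene has the widest range of the family. The sequences run 5′ to 3′ and come from the primer table of the study, and no result of that assay is used here.
RAB18 forward primer: tctagctcggaggatgatggac
RAB18 reverse primer: tgatcatgatgacctggcaacttc

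*XERO2* and *XERO1* lie next to each other on chromosome 3, and their levels were far apart. *XERO2*, also called *LTI30*, encodes a membrane-binding dehydrin induced by low temperature. It was at 3420.3 FPKM in ABA-treated *aph-1* and 3453 FPKM in the ABA-treated wild type, against 35.6 FPKM in untreated *aph-1* and 91.4 FPKM in the untreated wild type. *XERO1* was at 10.03 and 11.3 FPKM after ABA, in *aph-1* and in the wild type, and at 0.102 and 0.258 FPKM without ABA. Both genes were thus far higher in the ABA-treated groups than in the untreated groups, and lowest in untreated *aph-1*. The log2 ratio to ABA of *XERO2* was 6.59 in *aph-1* and 5.24 in the wild type, and that of *XERO1* was 6.63 in *aph-1* and 5.45 in the wild type. *XERO2* exceeded *XERO1* in FPKM by 341- and 306-fold after ABA, in *aph-1* and in the wild type, and by 350.2- and 355-fold without ABA. Multiplied by gene length in kilobases, introns included, untreated *XERO1* came to 0.103 in *aph-1* and 0.262 in the wild type. The lowest values above 0 gathered between 0.01 and 0.02 in both untreated groups, and *XERO1* stood above them. Its untreated levels were still well under 1 FPKM, so ratios that use them are uncertain. With a pseudocount of 0.1 FPKM its log2 ratio to ABA was 5.65 in *aph-1* and 4.99 in the wild type, and with 1 FPKM it was 3.32 in *aph-1* and 3.29 in the wild type.

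*COR47* and *ERD10*, neighbours on chromosome 1, formed a second pair with like ratios. They encode acidic dehydrins known from cold and dehydration. *COR47* was at 5815 FPKM in ABA-treated *aph-1* and 6514 FPKM in the ABA-treated wild type, against 375 FPKM in untreated *aph-1* and 594 FPKM in the untreated wild type. *ERD10* was at 2554 FPKM in ABA-treated *aph-1* and 2656 FPKM in the ABA-treated wild type, against 123 FPKM in untreated *aph-1* and 194 FPKM in the untreated wild type. In both genes the ABA-treated groups lay close together and far above the untreated groups. The log2 ratio to ABA of *COR47* was 3.96 in *aph-1* and 3.45 in the wild type, and that of *ERD10* was 4.38 in *aph-1* and 3.78 in the wild type. *COR47* exceeded *ERD10* by 2.28- and 2.45-fold after ABA, in *aph-1* and in the wild type, and by 3.05- and 3.07-fold without ABA. How reads were shared between similar stretches of these genes was not stated in the sources used here.

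*ERD14* and *HIRD11* were already abundant without ABA. *ERD14* encodes an acidic dehydrin with chaperone activity that binds calcium when phosphorylated. It was at 3002 FPKM in ABA-treated *aph-1* and 3719 FPKM in the ABA-treated wild type, against 484 FPKM in untreated *aph-1* and 696 FPKM in the untreated wild type. Among the members above 1 FPKM in every group, this was the smallest ratio of those that were higher, with log2 values of 2.63 in *aph-1* and 2.42 in the wild type. *HIRD11* was at 3968 FPKM in ABA-treated *aph-1* and 4612 FPKM in the ABA-treated wild type, against 3692 FPKM in untreated *aph-1* and 4748 FPKM in the untreated wild type. Its log2 ratio to ABA was 0.10 in *aph-1* and −0.04 in the wild type, so its level was within 2-fold in both, and when all groups were scaled to the same sum the value in *aph-1* became −0.01. The genotypes were further apart than the treatments for this gene.

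AT4G38410, a dehydrin family locus with no symbol, was the member that ABA lowered. It was at 14.8 FPKM in ABA-treated *aph-1* and 11.4 FPKM in the ABA-treated wild type, against 44.7 FPKM in untreated *aph-1* and 45.5 FPKM in the untreated wild type. The log2 ratio to ABA was −1.59 in *aph-1* and −2.00 in the wild type. Root and leaf markers were also below their untreated level after ABA in the wild type. The 3 root markers had a median log2 ratio of −0.63 in *aph-1* and −0.61 in the wild type, none of them beyond 2-fold. In *aph-1* 2 of them were below their untreated level, while *EXPA7* was above it at 0.10. The 3 leaf markers had a median of −1.04 in *aph-1* and −1.28 in the wild type, with 2 lower by at least 2-fold in each genotype. Their part in the result for AT4G38410 was not tested, and in RNA from whole seedlings fewer cells of a type and less RNA per cell cannot be told apart.

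AT2G21490 and AT4G39130 were the least abundant members. AT2G21490, named *LEA* in RefSeq, was at 3.18 FPKM in ABA-treated *aph-1* and 3.002 FPKM in the ABA-treated wild type, was listed at 0 in untreated *aph-1* and stood at 0.0831 FPKM in the untreated wild type. AT4G39130 was at 0.904 FPKM in ABA-treated *aph-1* and 1.22 FPKM in the ABA-treated wild type, was listed at 0 in untreated *aph-1* and stood at 0.0432 FPKM in the untreated wild type. Both were thus detected in both ABA-treated groups and at or near 0 without ABA. In the wild type the log2 ratio to ABA was 5.18 for AT2G21490 and 4.82 for AT4G39130. These values became 4.08 and 3.21 with a pseudocount of 0.1 FPKM, and 1.89 and 1.09 with 1 FPKM. No ratio was taken in *aph-1*, and AT4G39130 was not counted there because both values were under 1 FPKM. Multiplied by gene length in kilobases, introns included, the lowest values above 0 in the untreated wild type gathered between 0.01 and 0.02, where 559 genes lay, with 18 genes below. On this scale AT4G39130 was at 0.0319 and AT2G21490 at 0.0944, so their untreated levels lie close to the lowest values of the table.

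**Figure D2:**
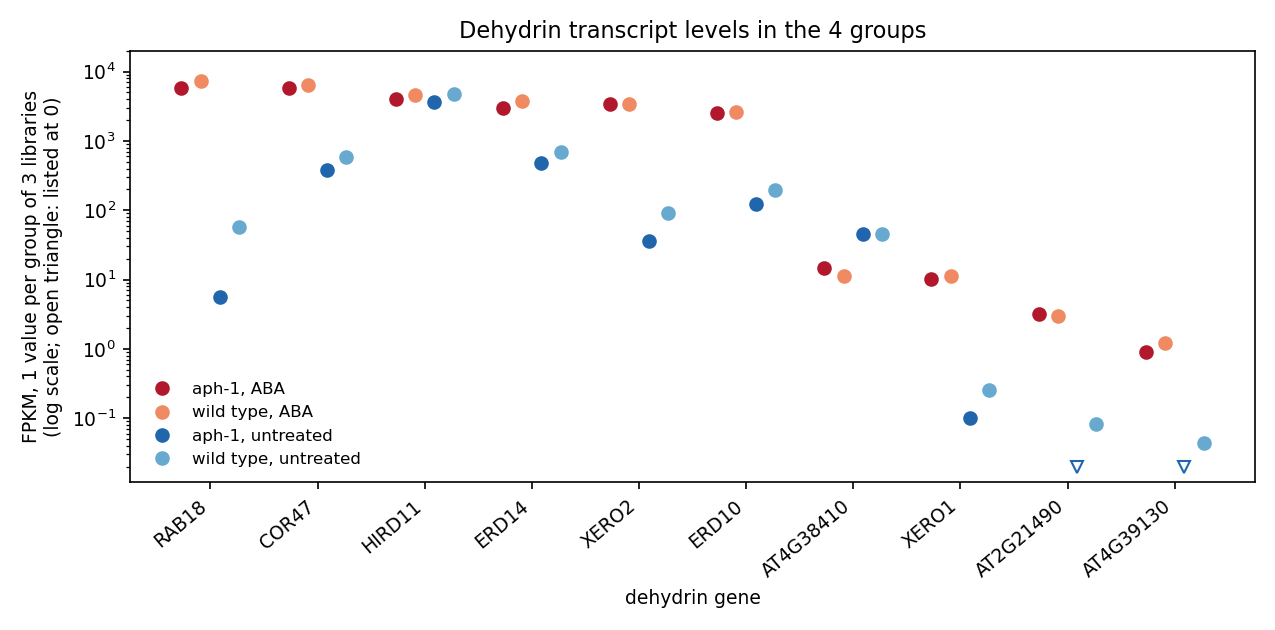
FPKM on a log scale for the 10 dehydrin genes, ordered by their level in the ABA-treated wild type, with 1 point per group of 3 libraries and open triangles for values listed at 0. Points of both ABA-treated groups lie above the untreated points for 8 genes, beside them for *HIRD11* and below them for AT4G38410.

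**Figure D3:**
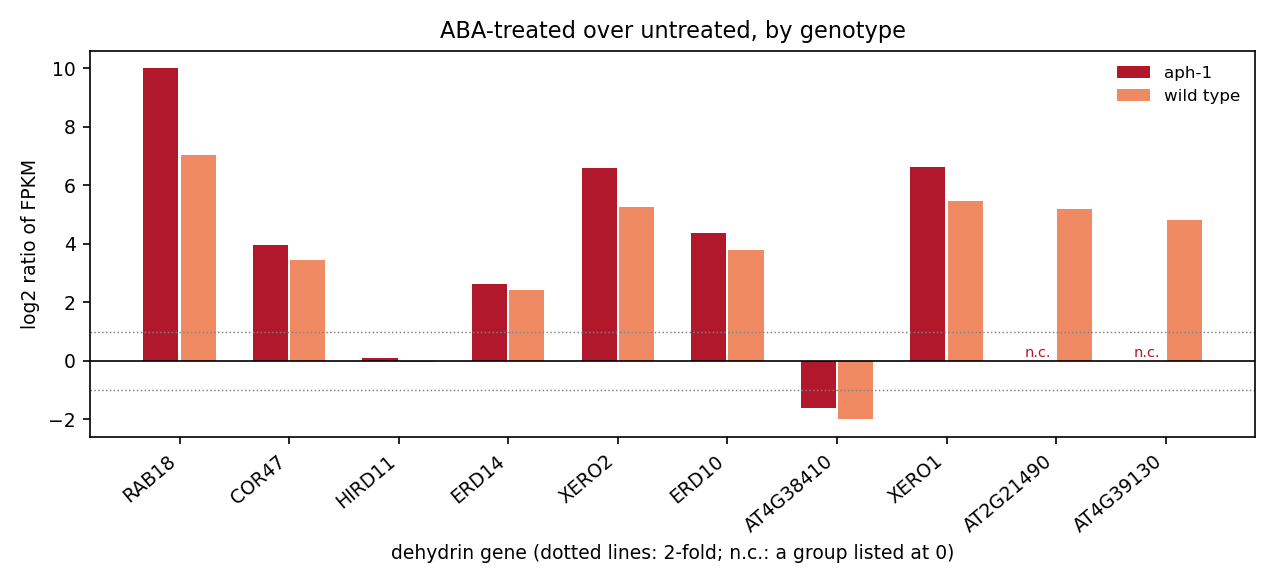
Log2 ratio of ABA-treated to untreated FPKM for each dehydrin gene in *aph-1* and in the wild type, with dotted lines at 2-fold and "n.c." where a group is listed at 0. Bars run from 9.99 for *RAB18* in *aph-1* to −2.00 for AT4G38410 in the wild type.

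The comparison of genotypes without ABA asks whether the basal level of these genes differed in *aph-1*. *RAB18* and *XERO2* were at least 2-fold lower in untreated *aph-1*, and no member was higher. Among 19788 genes with at least 1 FPKM, 0.945% were lower and 0.238% were higher. In *aph-1*, all 3 leaf markers exceeded their wild-type level, and their median log2 ratio was 0.33 without ABA and 0.43 with ABA, while the median of the 3 root markers was 0.02 without ABA and 0.29 with ABA, and their part in the genotype ratios was not tested. *RAB18* was 9.98-fold lower, at 5.67 FPKM in *aph-1* against 56.6 FPKM in the wild type, and its log2 ratio was −3.32. *XERO2* was 2.57-fold lower, at 35.6 FPKM in *aph-1* against 91.4 FPKM in the wild type, and its log2 ratio was −1.36. Among the members above 1000 FPKM after ABA, these had the lowest untreated levels in both genotypes. At a 3-fold threshold only *RAB18* counted as lower. When 1% of the ABA-treated level of the same genotype was taken off the untreated levels, *RAB18* came to 0 in both genotypes and only *XERO2* counted. That outcome follows from the cut. Untreated *RAB18* was at 0.0984% of its ABA-treated level in *aph-1* and 0.772% in the wild type, both below 1%. Untreated *XERO2* in *aph-1*, at 1.04%, was barely above it. *COR47*, *ERD10*, *ERD14* and *HIRD11* were within 2-fold, with log2 ratios of −0.67, −0.66, −0.52 and −0.36. AT4G38410, the member that ABA lowered, was at 44.7 FPKM in *aph-1* and 45.5 FPKM in the wild type, a log2 ratio of −0.03 that turned to values between 0.02 and 0.06 when ratios were centred on all genes or the groups scaled to the same sum, with or without the 100 most abundant genes.

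All 7 members with at least 1 FPKM without ABA were below the wild type, AT4G38410 apart under those scalings, with a median log2 ratio of −0.66, against −0.05 over all genes, of which 56.5% were below the wild type. *XERO1* stood at 0.102 FPKM in *aph-1* and 0.258 FPKM in the wild type, a log2 ratio of −1.34 that was not counted because both values were under 1 FPKM, and that became −0.83 with a pseudocount of 0.1 FPKM and −0.19 with 1 FPKM. AT2G21490 and AT4G39130 were listed at 0 in *aph-1*, against 0.0831 and 0.0432 FPKM in the wild type. The order of the genes by this ratio can be set beside their response to ABA. *RAB18* and *XERO2* had wild-type log2 ratios to ABA above 5 and log2 ratios of *aph-1* to wild type below −1. *COR47*, *ERD10* and *ERD14* had ABA ratios between 2.42 and 3.78 and genotype ratios between −0.67 and −0.52. *HIRD11* had an ABA ratio of −0.04 and a genotype ratio of −0.36, and AT4G38410 had −2.00 and −0.03. The orders were not the same throughout, since *COR47* had a smaller ABA ratio than *ERD10*, at 3.45 against 3.78, and a slightly lower genotype ratio. Both ratios use the same untreated wild-type value. The likeness of the orders was not tested and is a description only.

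With ABA, no member differed 2-fold between genotypes, while 0.489% of 19408 genes were higher in *aph-1* and 0.319% were lower. The log2 ratios of *aph-1* to wild type lay between −0.43 for AT4G39130 and 0.38 for AT4G38410, with a median of −0.17 over the 10 members and −0.01 over all genes. *RAB18* was at 5766 FPKM in *aph-1* and 7335 FPKM in the wild type, a log2 ratio of −0.35. *XERO2* was at 3420.3 FPKM in *aph-1* and 3453 FPKM in the wild type, a log2 ratio of −0.01. The members that were lower without ABA were therefore within 1.5-fold of the wild type with ABA. AT4G38410 and AT2G21490 were the members above the wild type, the second with 3.18 FPKM in *aph-1* and 3.002 FPKM in the wild type.

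**Figure D4:**
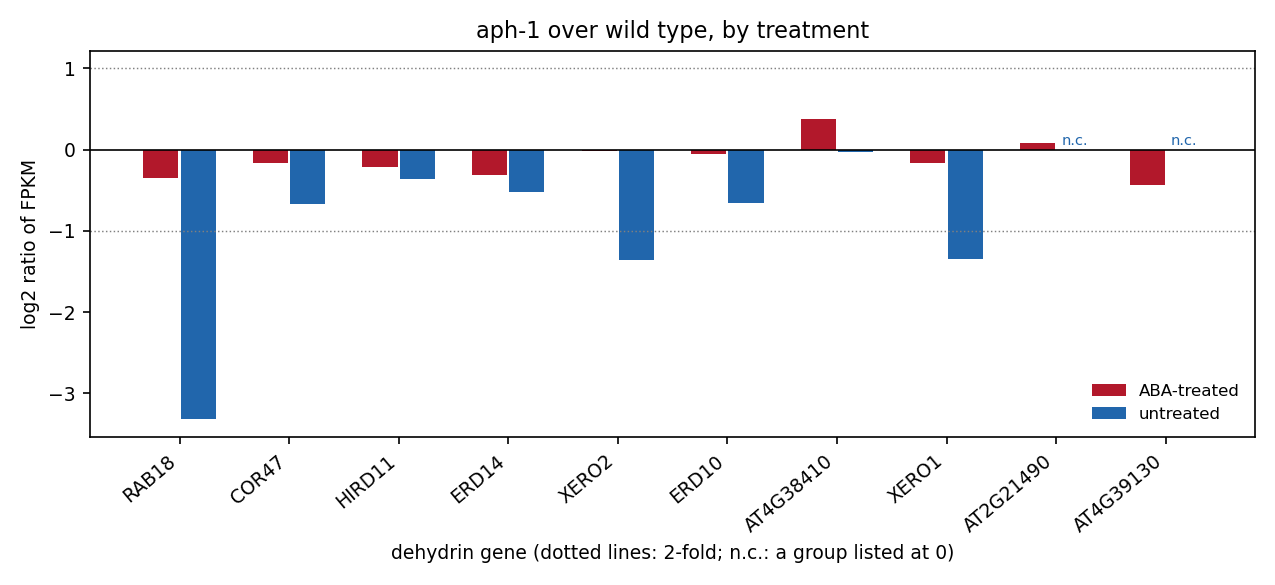
Log2 ratio of FPKM in *aph-1* to FPKM in the wild type for each dehydrin gene in ABA-treated and in untreated seedlings, with dotted lines at 2-fold and "n.c." where a group is listed at 0. Untreated bars pass the 2-fold line for *RAB18* at −3.32, *XERO2* at −1.36 and *XERO1* at −1.34, the last with under 1 FPKM in both genotypes, and ABA-treated bars lie between −0.43 and 0.38.

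The difference between the log2 ratio to ABA in *aph-1* and that in the wild type follows from the same values. It was positive for all 8 members above 0 in every group, with a median of 0.55. Over 20136 genes above 0 in every group and with at least 1 FPKM in 1 of them, the median was 0.04 and 55.0% were above 0. The difference was 2.97 for *RAB18* and 1.35 for *XERO2*. That of *XERO1*, 1.17, became 0.66 with a pseudocount of 0.1 FPKM and 0.04 with 1 FPKM. It was 0.60 for *ERD10*, 0.50 for *COR47*, 0.22 for *ERD14* and 0.15 for *HIRD11*. For AT4G38410 the value of 0.41 stood for a smaller reduction in *aph-1*. For *RAB18* and *XERO2* the larger ratio in *aph-1* came with the lower untreated level, since their ABA-treated levels in *aph-1* were at or below those of the wild type. In terms of the ABA-treated level of the same genotype, untreated *RAB18* was at 0.0984% in *aph-1* and 0.772% in the wild type. Among 11617 genes with at least 10 FPKM in both ABA-treated groups, 76 were under 1% in *aph-1* and 21 in the wild type. *RAB18* was the only dehydrin among them, in both genotypes. Under 0.5% there were 59 genes in *aph-1* and 2 in the wild type, with *RAB18* among them in *aph-1* alone. That lower cut lies between the shares of *RAB18* in the genotypes. For *XERO2* the shares were 1.04% in *aph-1* and 2.65% in the wild type, for *COR47* 6.44% and 9.13%, and for *ERD14* 16.1% and 18.7%.

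Genes with profiles most like those of the members were sought among 13312 genes with at least 10 FPKM in a group, as the smallest distance between centred log2 values over the 4 groups. Over so few values, a small distance says little more than that both ratios were alike. The nearest to *RAB18* were AT3G15670 and AT3G17520, which the table describes as LEA family proteins. AT3G15670 was at 441 FPKM in ABA-treated *aph-1* and 464 FPKM in the ABA-treated wild type, against 0.328 FPKM in untreated *aph-1* and 3.64 FPKM in the untreated wild type. AT3G17520 was at 1094 and 1221 FPKM with ABA, against 0.956 and 12.5 FPKM without ABA, in *aph-1* and in the wild type. Like *RAB18*, both were lowest in untreated *aph-1*, which follows from their choice by likeness to its profile. The genes nearest to *XERO2* were AT5G54165 and the transcription factor gene *MYB2*, and those nearest to *XERO1* were AT4G12580 and *PAP22*. *SNRK2.7* and AT3G20300 were nearest to *COR47*, *MIOX1* and *HB40* to *ERD10*, *ZFP5* and AT3G52790 to *ERD14*, *GBF4* and AT5G59540 to *HIRD11*, and AT5G39080 and *XYP2* to AT4G38410. No member was among the 2 nearest genes of another member on this scale, for which 0.1 FPKM was added to each value. Untreated *XERO1*, at 0.102 FPKM in *aph-1* and 0.258 FPKM in the wild type, is close in size to that addition. Its nearest genes, and its distance of 0.71 to *XERO2*, therefore depend on it.

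Genes of transcription factors known to act on dehydrin promoters can be read against the 12.2% of all genes higher after ABA in *aph-1* and the 11.9% in the wild type. Of 7 genes for factors that bind the ABA-responsive element, 6 had at least 1 FPKM and 5 were higher after ABA in both genotypes. None of the 6 differed 2-fold between genotypes, where 98.8% of all genes without ABA and 99.2% with ABA were also within 2-fold. *ABI5*, *ABF3* and *ABF2* had the largest ratios in the wild type, with log2 values of 2.89, 2.73 and 1.92, and 2.75, 2.89 and 1.81 in *aph-1*. Their untreated levels in *aph-1* were close to the wild type, at 2.13 FPKM against 1.93 FPKM for *ABI5*, 15.9 against 17.4 FPKM for *ABF3* and 27.6 against 29.5 FPKM for *ABF2*. Of 7 CBF and DREB2 genes, 5 reached 1 FPKM in *aph-1* and 4 in the wild type, and all of these were higher after ABA. In *aph-1* 2 of them, and in the wild type 1, reached 1 FPKM only in the ABA-treated group and could not count as lower. *DREB2A*, which acts in drought and heat, was at 53.3 FPKM in ABA-treated *aph-1* and 64.0 FPKM in the ABA-treated wild type, against 2.94 FPKM in untreated *aph-1* and 4.48 FPKM in the untreated wild type. *CBF3* was at 6.22 FPKM in ABA-treated *aph-1* and 6.85 FPKM in the ABA-treated wild type, against 0.429 and 0.517 FPKM without ABA, and *DREB2C* had log2 ratios to ABA of 2.12 in *aph-1* and 1.70 in the wild type. Without ABA, no CBF or DREB2 gene that reached 1 FPKM differed 2-fold between genotypes, like 98.8% of all genes.

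Kinase genes that act on dehydrins or upstream of them were set beside all genes, of which 76.7% in *aph-1* and 74.7% in the wild type were within 2-fold after ABA. Of the 3 ABA-activated SnRK2 genes, *SnRK2.6* was higher after ABA, with log2 ratios of 1.77 in *aph-1* and 1.47 in the wild type, while *SnRK2.2* and *SnRK2.3* had ratios of 0.40 and 0.37 in *aph-1* and 0.27 and 0.09 in the wild type. Casein kinase 2 phosphorylates acidic dehydrins, and all 8 of its subunit genes were within 2-fold in each comparison. Between genotypes, 98.8% of all genes without ABA and 99.2% with ABA were within 2-fold. *CKB3*, *CKB4* and *CKB1* had the largest ratios to ABA in the wild type, at 0.54, 0.44 and 0.43, with 0.48, 0.46 and 0.48 in *aph-1*.

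The LEA genes outside the dehydrins give a wider setting. By description or synonym there were 43 such genes, of which 33 had at least 1 FPKM in the comparisons with ABA. After ABA, 23 were higher and 2 lower in *aph-1*, and 23 were higher and 5 lower in the wild type. The median log2 ratios were 6.61 in *aph-1* and 5.23 in the wild type. They cover genes above 0 in both groups, with 24 ratios above 0 and 7 below in *aph-1*, and 25 and 8 in the wild type. The gene sets differ, so these medians are not a like-for-like comparison of the genotypes. Of these 33 genes, 18 in *aph-1* and 13 in the wild type reached 1 FPKM only in the ABA-treated group and could not count as lower. The shares over all genes were 12.2% higher and 11.1% lower in *aph-1*, and 11.9% higher and 13.4% lower in the wild type. Without ABA, 7 of the 20 LEA genes with at least 1 FPKM were lower in *aph-1* and none was higher, with a median log2 ratio of −0.43, against 0.945% of all genes lower and 0.238% higher. Of these 20 genes, 5 reached 1 FPKM only in the wild type and could not count as higher, and all 5 were lower. Among the 15 with at least 1 FPKM in both genotypes, 2 were lower. With ABA, none of 33 differed 2-fold between genotypes and the median was −0.07, while 99.2% of all genes were within 2-fold. Whether dehydrins and other LEA genes differ in these respects was not tested.

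Beyond the tandem pairs, 16 genes lie beside dehydrins on the chromosomes, and those named here were picked with their values in view. *PLP3a*, on the other side of *XERO2*, was at 17.8 FPKM in ABA-treated *aph-1* and 18.0 FPKM in the ABA-treated wild type, against 11.7 FPKM in untreated *aph-1* and 14.1 FPKM in the untreated wild type. AT5G66390 and *PLP3b*, on either side of *RAB18*, had log2 ratios of *aph-1* to wild type without ABA of −0.17 and −0.09. AT4G39140, beside AT4G39130, was higher after ABA at log2 ratios of 1.77 in *aph-1* and 1.78 in the wild type. AT1G20460, beside *ERD10*, was at 27.3 FPKM in ABA-treated *aph-1* and 25.1 FPKM in the ABA-treated wild type, against 12.5 FPKM in untreated *aph-1* and 14.1 FPKM in the untreated wild type, which is higher by at least 2-fold in *aph-1* and within 2-fold in the wild type. AT1G20430, beside *COR47*, was lower after ABA in the wild type at a log2 ratio of −1.01 and within 2-fold in *aph-1* at −0.58. *sks9*, on one side of AT4G38410, was lower after ABA, at 6.53 FPKM in ABA-treated *aph-1* and 6.09 FPKM in the ABA-treated wild type, against 23.3 FPKM in untreated *aph-1* and 22.1 FPKM in the untreated wild type. AT4G38405, on its other side, was listed at 0 in all groups.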

How the data were processed

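RNA of 12 libraries, 3 in each of 4 groups, was sequenced by the authors with a directional kit. By their methods, paired reads were trimmed with Trimmomatic, mapped to TAIR10 with HISAT and counted with HTSeq. The deposited values are FPKM by the authors, 1 per gene and group. This unit was inferred from the name of the table, which holds Cuffdiff, and from the values, and how the libraries were combined was not stated in the sources used here. Low FPKM values were not whole multiples of a single step, so reads were not recovered and depth per library, and with it precision, is unknown. The table also holds 8 columns of log2 ratios and yes or no calls of the authors' 4 comparisons, which were not used.

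From these values, log2 ratios, the 2-fold count with at least 1 FPKM, and profile distances on log2(FPKM + 0.1) were computed with Python 3.11.15, numpy 2.4.6 and pandas 2.3.3, and the code was tested on simulated data. No test was possible with 1 value per group, and no sequence feature was computed. Named genes are the 10 members, the 2 nearest profiles of each member with at least 10 FPKM, and from each list of regulators up to 3 members with the largest response to ABA in the wild type among those with at least 1 FPKM. *APH*, tissue markers and genes beside members on the chromosomes are named as well, the last picked with their values in view. The family and the lists were chosen with earlier results of these data known. Names, neighbours and gene lengths came from a RefSeq table of TAIR10.1, in which 32815 of 33559 loci were found. The 11 alternatives cover pseudocounts, fold thresholds, the minimum FPKM, scaling and a share of the ABA-treated value taken off the untreated value.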

Additional observations from a re-analysis of the deposited data

Results flagged for a closer look

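*HIRD11* had ratios to ABA of opposite sign in the genotypes, with a log2 ratio of 0.10 in *aph-1* and −0.04 in the wild type, a difference of 0.15. AT4G38410 had genotype ratios of opposite sign by treatment, with log2 ratios of *aph-1* to wild type of 0.38 with ABA and −0.03 without ABA, a difference of 0.41. The first turned to −0.01 in *aph-1* with all groups scaled to the same sum, and the untreated value of the second turned positive under each scaling tried. Each rests on 1 value per group, all of them within 2-fold, and the differences were not tested.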

How the results depend on the processing

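No paired analysis was possible because the table holds 1 value per group, and for the same reason leaving out a replicate was not run. The count of dehydrins lower in untreated *aph-1*, 2 in the report, was 4 at 1.5-fold (with *COR47* and *ERD10*), 1 at 3-fold (*RAB18*), 5 with no minimum FPKM (with *XERO1* and the 2 loci listed at 0) and 1 when 1% of the ABA-treated value of the same genotype was taken off each untreated value. In that last setting untreated *RAB18* came to 0 in both genotypes, while *XERO2* came to 1.37 FPKM in *aph-1* and 56.9 FPKM in the wild type. With 0.5% taken off, *RAB18* came to 0 in *aph-1* and 19.9 FPKM in the wild type, and the count stayed at 2. Each 0 was fixed by the cut, since untreated *RAB18* was at 0.0984% of its ABA-treated level in *aph-1* and 0.772% in the wild type. The share of *XERO2* in *aph-1*, 1.04%, was barely above the 1% taken off. The other 7 counts of dehydrins were within 1.5 times of their value under all 11 alternatives.

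Counts over all genes moved by over 1.5 times with the fold, the minimum or a pseudocount of 1 FPKM. Lower and higher genes in untreated *aph-1*, 187 and 47, were 735 and 310 at 1.5-fold, 88 and 21 at 3-fold, 1510 and 1414 with no minimum, 43 and 7 at 10 FPKM, and 95 and 22 with the pseudocount. With ABA, 62 lower and 95 higher genes in *aph-1* were 247 and 270, 35 and 41, 1299 and 1257, 11 and 22, and 33 and 43 in the same order. After ABA, 2232 lower and 2448 higher genes in *aph-1* were 4348 and 4056 at 1.5-fold, 1048 and 1432 at 3-fold, and 4426 and 3746 with no minimum, and 2686 and 2391 in the wild type were 4892 and 4324, 1336 and 1351, and 4621 and 3677. At 10 FPKM the lower genes were 1087 in *aph-1* and 1476 in the wild type. Scaling to the same sum moved the median log2 ratio to ABA over all genes in *aph-1* to −0.14, against −0.02 unscaled.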
